A study of Mus musculus with 6 samples.

Results

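*Rell1*, *Rell2* and *Relt*, the genes of the RELT family, were examined in colon epithelium with intact (*Zfp90*fl/fl) and with deleted *Zfp90* (*Zfp90*ΔIEC). The 3 genes were taken by symbol from 52550 genes listed in every sample, and all 3 were found. *Rell1* was singled out because its level differed between these genotypes, so its values are a description, and no test result is read from them. *Rell2* and *Relt* were taken by family name. RELT is a receptor of the tumor necrosis factor (TNF) receptor superfamily that was named for its expression in lymphoid tissue. RELL1 and RELL2 are membrane proteins that resemble RELT in their intracellular part and bind it, and they lack the cysteine-rich extracellular repeats of a TNF receptor. The kinases SPAK and OSR1, which also control chloride cotransporters in epithelia, bind to and phosphorylate members of the family, and raised levels of RELT proteins in cultured cells have been linked to p38 signaling and cell death.

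RNA-seq was available for 6 samples, 3 of each genotype, from male C57BL/6 mice. The labels give an age of 6 to 8 weeks, and the mice were older when the samples were taken at the end of the treatment. *Zfp90*fl/fl mice carry floxed *Zfp90* alleles and their *Zfp90*ΔIEC littermates lack the floxed part, exon 4 with the 3′ UTR, where a Villin-cre transgene is active, which is the epithelium of the whole intestine. All mice received the carcinogen azoxymethane at 10 mg/kg and, from 5 days later, 3 rounds of 2% dextran sulfate sodium, which injures the colon, for 7 days with 14 days of plain water after each, and were killed on day 80. The epithelial cells were released from the colon with EDTA and DTT and were not sorted by any step that the sources describe. The genotype labels of *Zfp90*ΔIEC replicates 2 and 3 name other gene numbers (Zfp91deltaIEC and Zfp92deltaIEC), and these samples were grouped by their cKO titles. The study gives another concentration of dextran sulfate sodium than the labels. Genotypes were housed apart, so housing and genotype cannot be told apart. The labels do not say that each sample is a separate animal, so the tests measure the spread between these samples.

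Values are FPKM, fragment counts scaled by the authors for transcript length and sequencing depth. *Zfp90* was at 0.490 to 0.630 FPKM in the *Zfp90*fl/fl samples and at 0.0846 to 0.195 FPKM in the *Zfp90*ΔIEC samples, without overlap (difference -0.44 on the scale of log2(FPKM + 1), limma adjusted p = 0.123 over all genes above 0). The steps between low values gave an estimate of 26300000 to 28800000 fragments per sample. The 15 colon epithelium markers summed to 10556 to 12966 FPKM in *Zfp90*fl/fl against 13444 to 17267 FPKM in *Zfp90*ΔIEC samples, and none of them was at 0 in any sample. Most of that difference was *Car1*, the carbonic anhydrase of the colon surface, at 4033 to 5628 against 6349 to 10059 FPKM. Of the 15, 6 had a lower mean in *Zfp90*ΔIEC samples, among them *Epcam* (ratio of means 0.985), *Krt8* (0.974) and *Krt19* (0.918), all 3 with overlap. Of the 13 with at least 1 FPKM in 3 samples, 6 were higher in *Zfp90*ΔIEC without overlap, against 8.73% of all genes tested. These were *Car1*, *Krt18* (ratio 1.16), *Slc26a3* (1.44), *Aqp8* (1.53), *Muc2* (1.57) and *Chga* (1.45). Of the 13, 0 were lower without overlap and 0 passed an adjusted p of 0.05 in limma. The 20 leukocyte markers summed to 36.5 to 59.7 and to 29.2 to 40.9 FPKM, and 19 of the 20 had a lower mean in the *Zfp90*ΔIEC samples. Most of that sum was *Ly6g* and *Kit*, and the other 18 markers summed to 7.52 to 10.6 FPKM in *Zfp90*fl/fl against 2.55 to 3.88 FPKM in *Zfp90*ΔIEC samples. Of these, *Itgam* was at 0.928 to 1.01 against 0.132 to 0.180 FPKM (limma adjusted p = 0.0199 over all genes above 0, where 0.0539% of 27805 passed). The neutrophil genes *S100a8* and *S100a9* did not exceed 1.62 FPKM in any sample and were at 0 in all 3 *Zfp90*ΔIEC samples. They rested on about 3.09 to 6.50 and 6.92 to 24.3 fragments per *Zfp90*fl/fl sample at most. *Ly6g*, another neutrophil marker, was at 23.9 to 44.7 against 21.9 to 32.9 FPKM, with overlap. The 12 stromal and endothelial markers summed to 2.41 to 2.79 and to 2.07 to 2.55 FPKM. Most of that sum was *Pdgfrb*, at 1.78 to 1.99 against 1.32 to 1.77 FPKM, without overlap (limma adjusted p = 0.302). *Pecam1* went the other way, at 0.197 to 0.313 against 0.417 to 0.480 FPKM, without overlap (limma adjusted p = 0.249 over all genes above 0). The other markers of this list overlapped.

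*Rell1* was the most abundant family member in every sample and the one with the large genotype difference. Replicates 1, 2 and 3 of *Zfp90*fl/fl had 2.46, 3.03 and 2.32 FPKM, and those of *Zfp90*ΔIEC had 12.35, 12.54 and 12.02 FPKM. All 3 *Zfp90*ΔIEC samples lay far above all 3 *Zfp90*fl/fl samples, and the lowest of them was 3.97 times the highest *Zfp90*fl/fl sample. The means were 2.60 ± 0.377 FPKM and 12.3 ± 0.267 FPKM (SD, n = 3 each), a ratio of 4.73. On the scale of log2(FPKM + 1), which shrinks the change of low genes, the difference was 1.89 (standard error 0.0831), and as a log2 ratio of mean FPKM it was 2.24. Of all 11564 genes tested, which had at least 1 FPKM in at least 3 samples, limma put 0.199% past an adjusted p of 0.05, with 0.0692% higher in *Zfp90*ΔIEC samples. *Rell1* was taken from the latter, so its place there is no finding. The genotypes did not overlap in 21.3% of these genes, with 8.73% higher in the *Zfp90*ΔIEC samples. *Rell1* ranked 4 among the tested genes by its log2 difference upward, and 2 genes, itself included, had a gap between the groups of this size or more in that direction, against 7 in the other. The part of the lower leukocyte markers and of the higher epithelium markers, *Car1* among them, in the *Rell1* values was not tested. In such bulk samples, fewer cells of a type and less RNA per cell cannot be told apart.

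**Figure D1:**
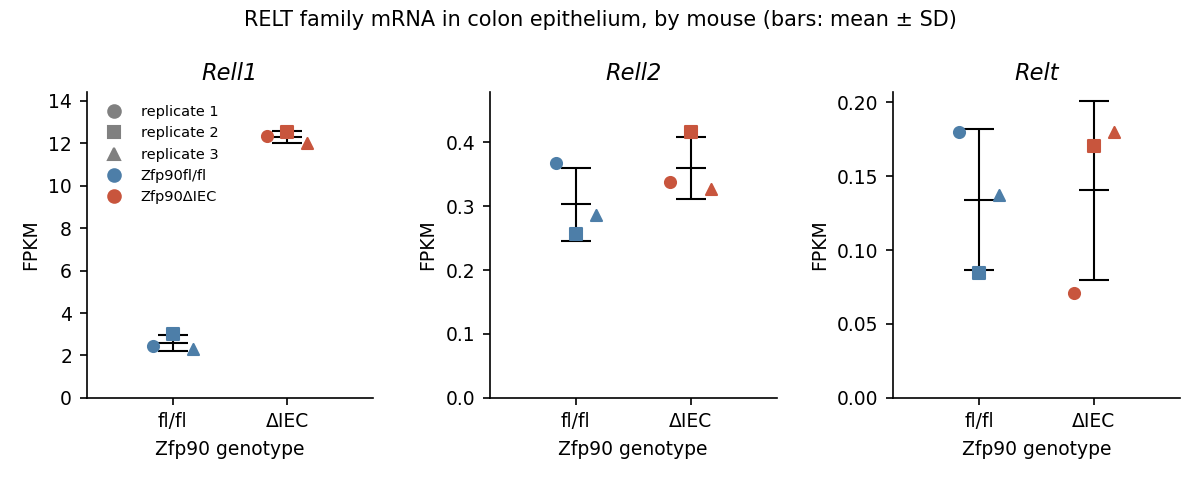
FPKM of *Rell1*, *Rell2* and *Relt* (y axes from 0, a scale for each gene) by *Zfp90* genotype, with a symbol for each replicate number and bars for the mean ± SD of 3 samples. *Rell1* sits at 2.32 to 3.03 FPKM in *Zfp90*fl/fl and at 12.02 to 12.54 FPKM in *Zfp90*ΔIEC samples, while both groups overlap for *Rell2* and *Relt*.

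The *Rell1* values were close together within each genotype. The coefficient of variation was 14.5% in the *Zfp90*fl/fl samples and 2.17% in the *Zfp90*ΔIEC samples. The SD of log2(FPKM + 1) within a genotype, pooled over both, was 0.106 for *Rell1* against a median of 0.1004 over all genes tested, so its spread was near that of a typical gene. In the *Zfp90*fl/fl samples, 19.4% to 26.6% of the tested genes were expressed below *Rell1*. In the *Zfp90*ΔIEC samples, 69.9% to 70.6% were. If all fragments came from its longest transcript, *Rell1* rested on about 209 to 275 fragments per *Zfp90*fl/fl sample and 1109 to 1159 per *Zfp90*ΔIEC sample. With each sample left out in turn, its difference stayed between 1.83 and 1.97 on the log2(FPKM + 1) scale.

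**Figure D2:**
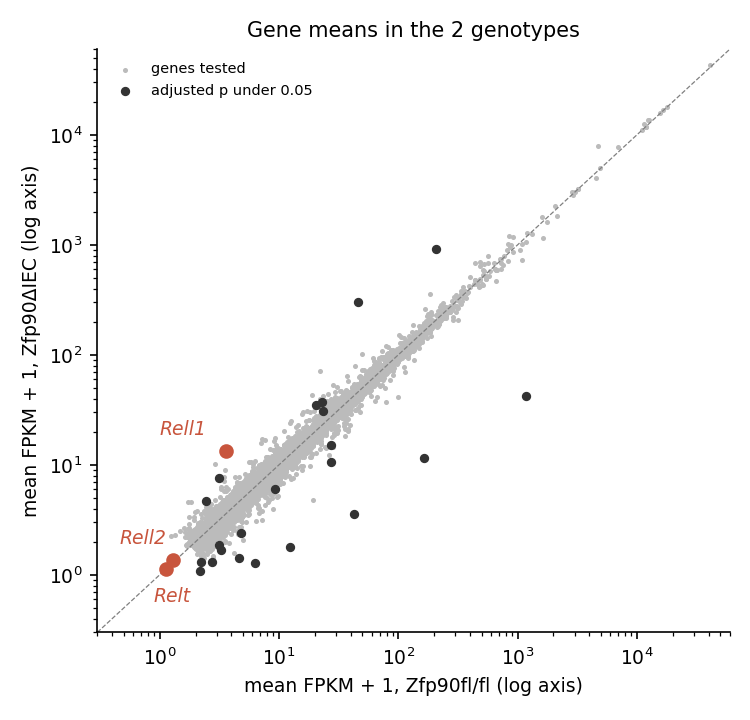
Mean FPKM + 1 of each of the 11564 genes tested in *Zfp90*fl/fl (x axis, log) and *Zfp90*ΔIEC samples (y axis, log), with genes past an adjusted p of 0.05 in black, the RELT family in red and equal means on the dashed line. *Rell1* lies above the line at means of 2.60 and 12.3 FPKM, and *Rell2* and *Relt*, which were below the filter, lie near the line at the lower left corner.

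*Rell1* (ENSMUSG00000047881) lies on the minus strand of chromosome 5 of GRCm38, from 63908897 to 63968897 in the GENCODE annotation. The files hold no coordinates, and the build named in the labels is an older one, mm9. The gene has 5 annotated transcripts, 2 of them coding. The longest has 7 exons, 3241 bases and 272 codons, and the shortest has 375 bases. The files give a single value per gene, so the transcripts behind it cannot be told apart. RefSeq ends the gene further downstream and places it at 63889337 to 63969020. The antisense gene *Gm15819* lies inside *Rell1* on the other strand, at 63923901 to 63924970. Of the 50-base words in *Rell1* transcripts, 1.61% also occur in another gene, and that gene was *Gm15819* in each case. The libraries were strand-specific per the labels, but whether the counting used the strand is not given in the sources used here. *Gm15819* was at 0.0624 to 0.626 FPKM in the *Zfp90*fl/fl samples and at 0.420 to 0.855 FPKM in the *Zfp90*ΔIEC samples, which overlap and lie far below *Rell1*.

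The genes beside *Rell1* that passed the filter did not reach its ratio of means, 4.73. Of all 11564 genes tested, 5 did, *Rell1* included, and it was chosen for its difference, so this is no result about the region. Of 22 genes annotated within 500 kb of *Rell1*, 3 passed the filter. Of these, 0 passed an adjusted p of 0.05 in limma (0.199% of all genes tested), with 1 at an unadjusted p under 0.05 (14.6% of all genes tested). *0610040J01Rik*, whose annotated end lies 9272 bases from *Rell1*, was at 19.5, 20.6 and 21.6 FPKM in the *Zfp90*fl/fl samples against 21.9, 19.8 and 22.0 FPKM in *Zfp90*ΔIEC. Its groups overlapped, with a difference of 0.046 on the log2(FPKM + 1) scale (95% interval -0.11 to 0.21, limma adjusted p = 0.793). The longer *Rell1* of RefSeq overlaps this gene over 10289 bases on the opposite strand. *Pgm2*, a phosphopentomutase gene on the other side, was at 29.8, 35.3 and 31.8 FPKM and at 37.9, 39.3 and 36.6 FPKM. Its groups did not overlap, but the difference of 0.23 did not pass over all genes (95% interval 0.055 to 0.40, limma adjusted p = 0.238). *Tbc1d1*, which encodes a regulator of glucose transporter traffic, was at 3.75 to 3.94 FPKM and at 3.77 to 4.90 FPKM, a difference of 0.11 (95% interval -0.10 to 0.32). The remaining protein-coding gene of the region, *Nwd2*, was at 0 to 0.0117 FPKM.

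**Figure D3:**
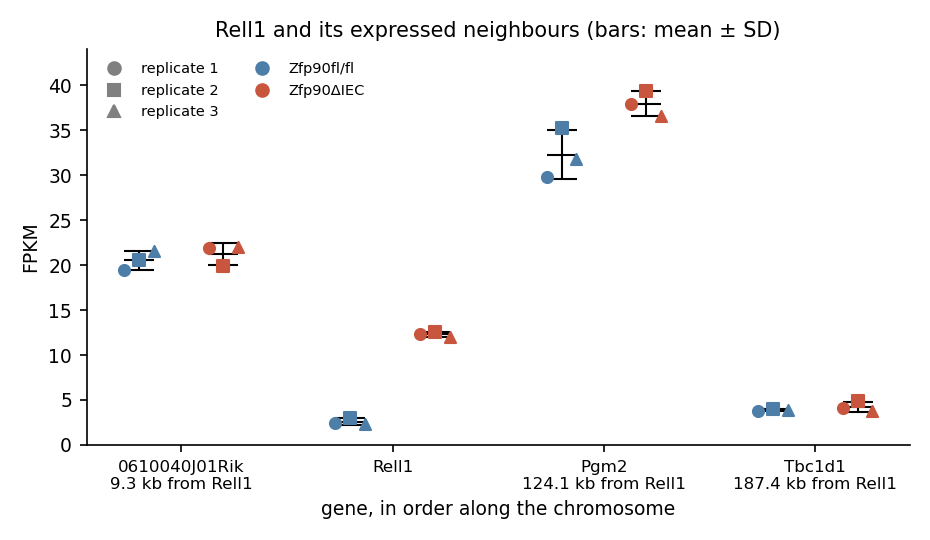
FPKM (y axis from 0) of *Rell1* and the 3 neighbouring genes within 500 kb that passed the filter, in chromosome order, with a symbol for each replicate number and bars for the mean ± SD of 3 samples per genotype. The groups lie apart at *Rell1*, by less at *Pgm2*, and overlap at *0610040J01Rik* and *Tbc1d1*.

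*Rell2* (ENSMUSG00000044024, chromosome 18 of GRCm38, plus strand) encodes the other RELT-like protein and was expressed at a low level in both genotypes. Replicates 1, 2 and 3 of *Zfp90*fl/fl had 0.367, 0.257 and 0.286 FPKM, and those of *Zfp90*ΔIEC had 0.337, 0.416 and 0.327 FPKM. The groups overlapped, since *Zfp90*fl/fl replicate 1 lay above 2 of the *Zfp90*ΔIEC samples. The means were 0.303 ± 0.0571 FPKM and 0.360 ± 0.0488 FPKM (SD, n = 3 each). The difference was 0.062 on the log2(FPKM + 1) scale (95% interval -0.061 to 0.19, limma adjusted p = 0.751 in the fit without the filter, where 0.0539% of 27805 genes passed). A rise of the ratio seen for *Rell1* would have been 0.90 on this scale, above the upper bound of that interval. *Rell2* rested on about 15.5 to 25.5 fragments per sample at most. Of its 50-base words, 36.6% also occur in *Fchsd1*, a gene that overlaps it on the opposite strand, so part of its value could be shared with that gene if strand was not used. *Fchsd1* was at 1.97 to 2.03 FPKM in the *Zfp90*fl/fl samples and at 1.69 to 1.79 FPKM in the *Zfp90*ΔIEC samples. Its groups did not overlap and it did not pass the test (difference -0.13, limma adjusted p = 0.392).

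*Relt* (ENSMUSG00000008318, chromosome 7 of GRCm38, minus strand, 100845847 to 100863446), the receptor itself, was the lowest of the family. It was at 0.180, 0.0847 and 0.137 FPKM in the *Zfp90*fl/fl samples against 0.0709, 0.171 and 0.180 FPKM in *Zfp90*ΔIEC. Both genotypes covered almost the same range, with a high and a low sample in each. The means were 0.134 ± 0.0477 FPKM and 0.140 ± 0.0604 FPKM (SD, n = 3 each). The difference was 0.0076 on the log2(FPKM + 1) scale (95% interval -0.12 to 0.13, limma adjusted p = 0.966 in the fit without the filter). A rise of the ratio seen for *Rell1* would have been 0.53 on this scale, again above the interval. With single samples left out, the *Relt* difference ran from -0.024 to 0.052 and changed sign. *Relt* rested on about 5.60 to 14.7 fragments per sample at most, and the part of counting error in its interval was not tested. With 0.1 in place of 1 added before the logarithm, the interval was -0.65 to 0.70 for *Relt* and -0.32 to 0.71 for *Rell2*.

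Since FPKM is scaled for length, the family members can be set beside each other. The order was *Rell1*, *Rell2* and *Relt* in each of the 6 samples, and the ranges of *Rell2* and *Relt* over these samples did not overlap. Part of the *Rell2* value could be shared with *Fchsd1* if strand was not used, and the part of this in the order was not tested. *Rell1* made up 81.8% to 89.9% of the summed FPKM of the family in *Zfp90*fl/fl against 95.5% to 96.8% in *Zfp90*ΔIEC samples. The family summed to 2.74 to 3.37 FPKM and to 12.5 to 13.1 FPKM. *Relt* thus gave a small share of the family's mRNA, 2.51% to 5.99% and 0.556% to 1.44%.

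The genes of the binding partners and the SPAK and OSR1 arm were expressed in the epithelium and did not differ between genotypes past the threshold. Of 8 genes on this list, 7 passed the filter and 0 passed an adjusted p of 0.05 in limma, with 0 at an unadjusted p under 0.05, where 14.6% of all genes tested were. The median difference of the 7 genes was 0.072 on the log2(FPKM + 1) scale, against -0.023 over all genes tested. *Stk39*, which encodes SPAK, was at 7.49, 8.40 and 8.18 FPKM in the *Zfp90*fl/fl samples against 10.4, 8.55 and 8.69 FPKM in *Zfp90*ΔIEC. The groups did not overlap, though *Zfp90*ΔIEC replicates 2 and 3 lay just above the highest *Zfp90*fl/fl sample (difference 0.17, 95% interval -0.029 to 0.38, limma adjusted p = 0.410). *Oxsr1*, which encodes OSR1, was at 14.8, 14.3 and 14.3 FPKM and at 12.9, 14.1 and 13.8 FPKM, a difference of -0.084 (95% interval -0.22 to 0.050). The kinases that activate SPAK and OSR1 overlapped between genotypes, with *Wnk1* at 4.39 to 5.41 and 4.63 to 5.25 FPKM and *Wnk4* at 8.41 to 9.88 and 8.44 to 10.98 FPKM. *Cab39*, a scaffold that stimulates both kinases, was at 37.7 to 40.9 and 40.1 to 41.2 FPKM.

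*Slc12a2*, the basolateral chloride cotransporter that SPAK and OSR1 activate, was at 54.5, 55.1 and 49.2 FPKM in the *Zfp90*fl/fl samples against 74.3, 47.0 and 49.3 FPKM in *Zfp90*ΔIEC. The high value of *Zfp90*ΔIEC replicate 1 set its direction, and the difference of 0.072 became -0.13 without that sample. *Plscr1*, a phospholipid scramblase gene whose protein binds RELT family members, was at 49.0 to 56.2 FPKM and at 54.5 to 56.9 FPKM, with overlap. *Mdfic*, which encodes another reported binding partner, lay below the filter at 0.432 to 0.614 FPKM and 0.296 to 0.338 FPKM. Its groups did not overlap, and its difference of -0.19 did not pass (95% interval -0.33 to -0.043, limma adjusted p = 0.367 without the filter).

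**Figure D4:**
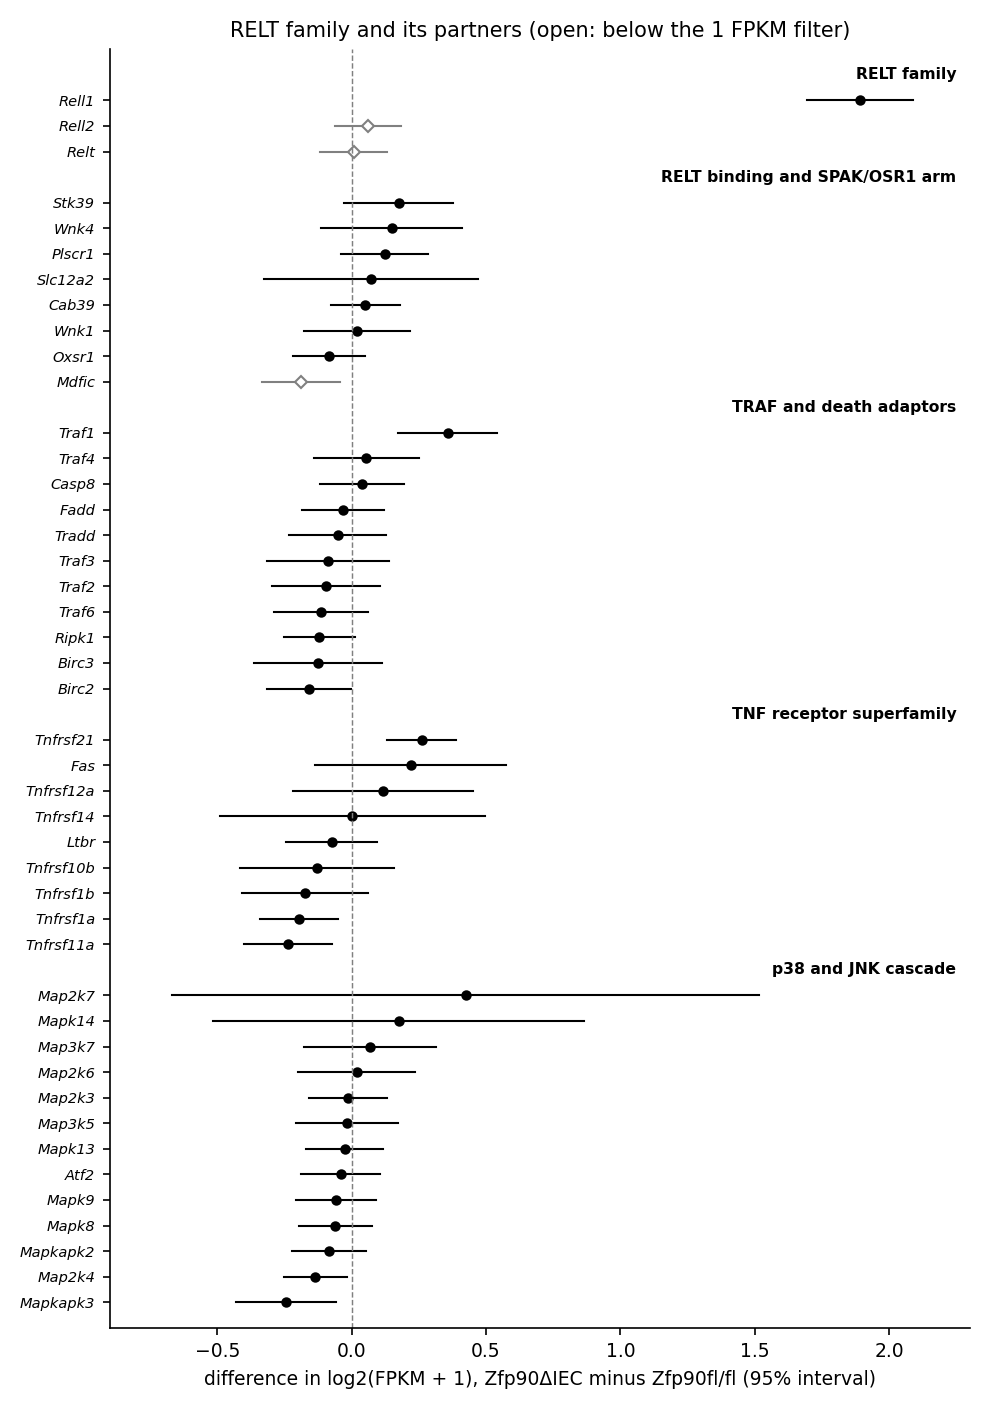
Difference in log2(FPKM + 1) between genotypes (x axis, *Zfp90*ΔIEC minus *Zfp90*fl/fl, points with 95% intervals from limma) for the RELT family, its partners, and the genes of the other lists that passed the filter, with open symbols for genes below it. *Rell1* at 1.89 lies to the right of every other point, the next being *Map2k7* at 0.42, which rests on 1 sample. *Rell1* was chosen for its difference, which ranked 4 upward among all 11564 genes tested.

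Adaptors downstream of TNF receptors were measured next, among them *Traf1*, whose protein was reported to bind RELT. Of 12 adaptor genes, 11 passed the filter, 0 passed an adjusted p of 0.05 in limma and 2 had an unadjusted p under 0.05, 1 in each direction, against 14.6% of all genes tested. Their median difference was -0.088. *Traf1* had the largest difference of the list, at 1.46, 1.499 and 1.20 FPKM in the *Zfp90*fl/fl samples against 2.16, 2.03 and 1.97 FPKM in *Zfp90*ΔIEC. All *Zfp90*ΔIEC samples lay above all *Zfp90*fl/fl samples, and the difference was 0.36 (standard error 0.0780, 95% interval 0.17 to 0.54, limma adjusted p = 0.120). *Birc2*, a ubiquitin ligase gene of the same complexes, was at 9.58, 9.52 and 10.1 FPKM and at 9.17, 7.95 and 8.70 FPKM, without overlap (difference -0.16, limma adjusted p = 0.331). The death adaptor and caspase genes *Fadd*, *Tradd* and *Casp8* had overlapping groups and differences between -0.053 and 0.038. *Ripk1* of the same list was at 7.07 to 7.46 FPKM in *Zfp90*fl/fl against 6.43 to 6.86 FPKM in *Zfp90*ΔIEC samples. Its groups did not overlap (difference -0.12, limma adjusted p = 0.387).

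Most other TNF receptor genes were, like *Relt*, scarce in this epithelium. Of 27 receptor genes, 17 stayed under 1 FPKM in every sample and 9 passed the filter, against 11564 of all 52550 genes listed. Of these 9, 0 passed an adjusted p of 0.05 in limma and 3 had an unadjusted p under 0.05, 1 higher and 2 lower in the *Zfp90*ΔIEC samples, against 14.6% of all genes tested. Their median difference was -0.074. *Tnfrsf21*, which encodes death receptor 6, was at 18.5, 20.0 and 19.7 FPKM in the *Zfp90*fl/fl samples against 23.5, 23.1 and 23.6 FPKM in *Zfp90*ΔIEC. These groups did not overlap, with a difference of 0.26 (95% interval 0.13 to 0.39, limma adjusted p = 0.115). *Tnfrsf11a*, which encodes RANK, was at 24.7, 24.3 and 23.6 FPKM and at 21.1, 18.6 and 21.6 FPKM, also without overlap (difference -0.24, 95% interval -0.40 to -0.073, limma adjusted p = 0.201).

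The p38 and JNK cascade, to which RELT proteins have been linked, showed 0 of 13 genes past an adjusted p of 0.05 in limma and 2 at an unadjusted p under 0.05, both lower, against 14.6% of all genes tested. The median difference of the 13 genes was -0.027. *Mapkapk3*, a kinase gene downstream of p38, was at 15.6, 16.9 and 15.7 FPKM in the *Zfp90*fl/fl samples against 14.2, 11.998 and 14.1 FPKM in *Zfp90*ΔIEC, without overlap (difference -0.24, 95% interval -0.43 to -0.058, limma adjusted p = 0.239). *Map2k7*, a kinase gene upstream of JNK, was at 2.79, 2.44 and 3.07 FPKM and at 1.94, 2.82 and 10.4 FPKM. The value of *Zfp90*ΔIEC replicate 3 stood apart from the other 5 samples, and the difference of 0.42 became -0.16 without it. Among the genes of the 4 lists that passed the filter, the highest ratios of means were those of *Map2k7*, 1.83, and *Traf1*, 1.48. None reached the 4.73 of *Rell1*, which was chosen for its difference. Of all 11564 genes tested, 5 had such a ratio or more, *Rell1* included, so this is no result about the lists. Below the filter, where values rest on few fragments, the ratios ran wider. *Edar*, the ectodysplasin receptor gene, was at 0.00982 to 0.0293 and 0.0197 to 0.130 FPKM, with overlap (ratio 4.15, limma adjusted p = 0.540 without the filter). *Tnfrsf9*, which encodes the lymphocyte receptor CD137, was at 0.177 to 0.197 and 0 to 0.0534 FPKM, without overlap (ratio 0.120, limma adjusted p = 0.111 without the filter). *Mapk11*, a p38 gene, was at 0.0933 to 0.288 and 0.309 to 0.483 FPKM, without overlap (ratio 2.22, limma adjusted p = 0.377 without the filter). The genotypes did not overlap in 2 of 7 partner genes, 3 of 11 adaptor genes, 3 of 9 receptor genes and 3 of 13 cascade genes, against the 21.3% of all genes tested.

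Genes with a pattern like that of the members were sought over the 6 samples by Pearson's r of log2(FPKM + 1), among tested genes with a mean of at least 5 FPKM. For *Rell1*, 42 of 6661 genes had an r above 0.95 and 63 an r below -0.95. With 3 samples in each of 2 separated groups, any gene that differs between the genotypes tends to have an r far from 0 with *Rell1*. The highest r were those of *Mdm2*, a ubiquitin ligase gene (0.991), *Hsdl2*, a peroxisomal dehydrogenase gene (0.990), and *Rundc3b* (0.990). *Mdm2* was at 6.68 to 6.82 FPKM in the *Zfp90*fl/fl samples and at 8.16 to 8.34 FPKM in the *Zfp90*ΔIEC samples, a much smaller step than that of *Rell1*. For the deviations from the genotype means, r with *Rell1* was 0.030, 0.69 and 0.43 for these 3 genes. For *Rell2*, 4 of 6662 genes had an r above 0.95 and 15 an r below -0.95, the former led by the ribosome assembly gene *Kri1* (0.995), the sugar kinase gene *Shpk* (0.977) and the deubiquitinase gene *Usp1* (0.962). For *Relt*, 5 of 6662 genes had an r above 0.95 and 9 an r below -0.95, the former including the retromer gene *Vps26a* (0.990) and the lysosomal sialic acid transporter gene *Slc17a5* (0.962). *Rell2* and *Relt* rest on few fragments, and the part of counting error in these values was not tested. Among so many genes, some reach such an r over 6 samples without any relation to the member, and how many was not tested. Between the members themselves, r was 0.53 for *Rell1* with *Rell2*, 0.019 for *Rell1* with *Relt* and 0.55 for *Rell2* with *Relt*.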

How the data were processed

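The authors sequenced paired ends of 150 bp and deposited a file per sample with an FPKM for each mouse Ensembl gene. The study's methods give TopHat and Cuffdiff with a human genome, while the labels list STAR 2.5, Cuffnorm, DESeq 1.22.1 and mm9 without roles. The unit follows from these methods and the values. The files give no depth, which was estimated from steps of 1 fragment in genes with a single annotated transcript (59.8% to 64.6% of low values within 0.1 of a whole number).

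Symbols were found for 52403 of 52550 genes. The scale was log2(FPKM + 1). The test was limma 3.58.1 (intensity trend, R 4.3.3) without pairing, on genes reaching 1 FPKM in 3 or more samples, and p-values were adjusted by Benjamini-Hochberg with a threshold of 0.05. Genes below the filter take their values from a fit of all 27805 genes above 0 in any sample. Normal noise with the spread of these 11564 genes was simulated. A 2-fold change of FPKM + 1, which is a larger change in FPKM for low genes, was put into 200 of them. It was called in 89.5%, beside 16 false calls. Figures were made with matplotlib 3.10.9.

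The members and the gene lists were chosen with earlier results of these data known. Named are the members, *Zfp90*, all genes of the partner list, in each other list the 2 largest differences, the coding neighbours of *Rell1*, and the 3 genes most alike each member, of which 1 is not reported here. Other genes named, *Fchsd1*, *Gm15819*, *Mapk11*, *Edar*, *Tnfrsf9*, *Fadd*, *Tradd*, *Casp8*, *Ripk1* and the markers set apart, were chosen after their values were seen. Alternatives were a pseudocount of 0.1, no filter, a filter of 0.1 FPKM, quantile normalization, median ratio scaling, the replicate number as a block and leaving out each sample.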

Additional observations from a re-analysis of the deposited data

How the results depend on the processing

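*Rell1* was 1.89 higher on the log2(FPKM + 1) scale in every scaling with that pseudocount to within 0.02, and 2.21 with a pseudocount of 0.1. The number of genes past the threshold over all genes was 23, against 13 with a pseudocount of 0.1, 15 without the filter and 47 with the replicate number as a block. It ran from 10 to 21 with a sample left out, and was 10 without *Zfp90*fl/fl replicate 2. The counts of the 4 gene lists and of the *Rell1* neighbours stayed at 0 under all alternatives run. With a sample left out, differences ran from 1.83 to 1.97 for *Rell1*, from -0.024 to 0.052 for *Relt*, from -0.035 to 0.091 for *Wnk1*, from -0.13 to 0.19 for *Slc12a2* and from -0.16 to 0.81 for *Map2k7*, and the last 4 changed sign. The cause was not tested. *Rell2* and *Relt* come from the fit without the filter, so that no separate value without it exists.

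Same-numbered samples deviated from their group means with correlations of 0.19, 0.11 and 0.078, against -0.13 to 0.014 for the other pairs across genotypes. Whether same-numbered samples share more than a number was not tested. All 6 samples correlated best with their own number, which is a hint from the data and not from the design. With the replicate block, the differences of the members cannot change, since each number occurs once per genotype. With the block, 0 genes of the 4 lists passed. *Rell1* was past the threshold in every fit with a filter, which is no support, since it was chosen for this difference. Without the filter, where 15 genes were past it, 0 were with the block, and 0 were when *Zfp90*fl/fl replicate 1 or a single one of the *Zfp90*ΔIEC samples was left out, so that *Rell1* was not past it either.

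At about 5.60 to 14.7 fragments for *Relt* and 15.5 to 25.5 for *Rell2*, a single fragment is a large share of the value of these genes.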
